A study of Rattus norvegicus with 6 samples.

Results

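Cell-cell junction genes were followed across 4 structures of the rat brain (pineal gland, subcommissural organ, subfornical organ, and ependyma from the wall of the third ventricle) and in total brain. The set held every gene with 1 annotated symbol that begins with the letters of the claudins (Cldn), cadherins (Cdh and a digit), protocadherins (Pcdh), zonula occludens proteins (Tjp), occludin (Ocln), cingulins (Cgn), catenins (Ctnn), plakophilins (Pkp), desmogleins (Dsg) or desmocollins (Dsc and a digit). The endothelial claudin Cldn5 was left out. This gave 58 of the 12167 named genes, in 6 families: 17 claudins, 3 tight junction plaque genes, 13 cadherins, 14 protocadherins, 8 catenins and 3 desmosomal genes. The families follow symbols, so the catenin family also held Ctnnbl1, Ctnnal1 and Ctnnbip1, which are not catenins of the junction in a strict sense, and the claudin family held the claudin-like Cldnd1. No probe was named for occludin or for a desmoglein.

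The 6 one-colour arrays came from adult male Sprague-Dawley rats labelled as normal: 2 arrays of pineal gland, 1 each of subcommissural organ, subfornical organ and ependyma from the third ventricle, and 1 of total brain. Each of the single structure arrays was a pool of 2, and total brain was a pool used as the reference. The structures were captured by laser microdissection, and ependymal cells were taken at a distance from both neighbouring organs, per the labels' protocols. The labels do not say if the gland's 2 arrays are of different animals, so every p-value measures only the spread between those 2 arrays. As a check of the labels, 6 pineal gland markers summed to 1246 and 833 on the pineal gland arrays, against 128 in subcommissural organ, 48.6 in subfornical organ, 28.1 in ependyma and 25.5 in total brain. Most of the sum outside the gland was Otx2, with 124, 42.2, 23.7 and 19.4 in the same order. Sums of marker levels thus lean on the brightest genes of a list. The cilia markers of ependyma are given below. No marker list for the subcommissural or subfornical organ itself was used.

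Tight junctions seal the space between neighbouring cells, and claudins are the membrane proteins that set which ions and molecules pass. Adherens junctions hold cells together through cadherins, whose tails bind catenins that link them to actin, while desmosomes anchor intermediate filaments through desmocollins, desmogleins and plakophilins. Protocadherins are related adhesion proteins best known from neurons, where they take part in cell recognition. The pineal gland, the subcommissural organ and the subfornical organ are circumventricular organs that border the ventricles, and ordinary ependyma is the ciliated lining between brain tissue and cerebrospinal fluid.

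Levels are the authors' intensities on a linear scale with no stated unit, so a level can be compared between arrays for 1 probe but not between genes. Each gene was represented by its brightest probe. A level of 1.05, the pooled median of all probes, served as the bound: a comparison of a gene was kept if its higher side reached 1.05, and such genes are called measured. Where the lower side lay under 1.05, the fold is given over 1.05 and written as at least that fold. The array medians lay between 1.04 and 1.07. A log2 difference was taken after raising values to at least 0.142, the pooled 5th percentile, and a difference counted from 4-fold on, with both pineal gland arrays on the same side. On that rule a gene can pass 4-fold with a bound under 4. An adjusted p-value printed beside a fold written as at least belongs to the log2 difference, and not to that smaller fold over 1.05.

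Of the 58 junction genes, 45 passed the bound on at least 1 array, 19 passed it on all 6 arrays and 13 on none. Those 19 are 32.8% of the set, where 52.0% of all named genes passed on every array, and the 13 are 22.4%, beside 18.1% of all named genes. Between 30 and 38 junction genes (51.7% to 65.5%) passed on any single array, where 65.3% to 68.7% of all named genes did. The subfornical organ had the highest count of junction genes, and total brain the highest of all named genes. Catenins passed most often, with 8 of 8 over the bound on some array and 4 on all. Among claudins 13 of 17 passed on some array and 6 on all, among cadherins 12 of 13 and 4, and among protocadherins 7 of 14 and 3. The plaque genes Tjp1, Tjp3 and Cgnl1 all passed on some array, and so did the desmosomal Pkp2 and Dsc2. The 13 genes under the bound throughout were Cdh3, Cldn7, Cldn8, Cldn15, Cldn17, Pkp3 and 7 protocadherins, for which no level is given.

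**Figure D1:**
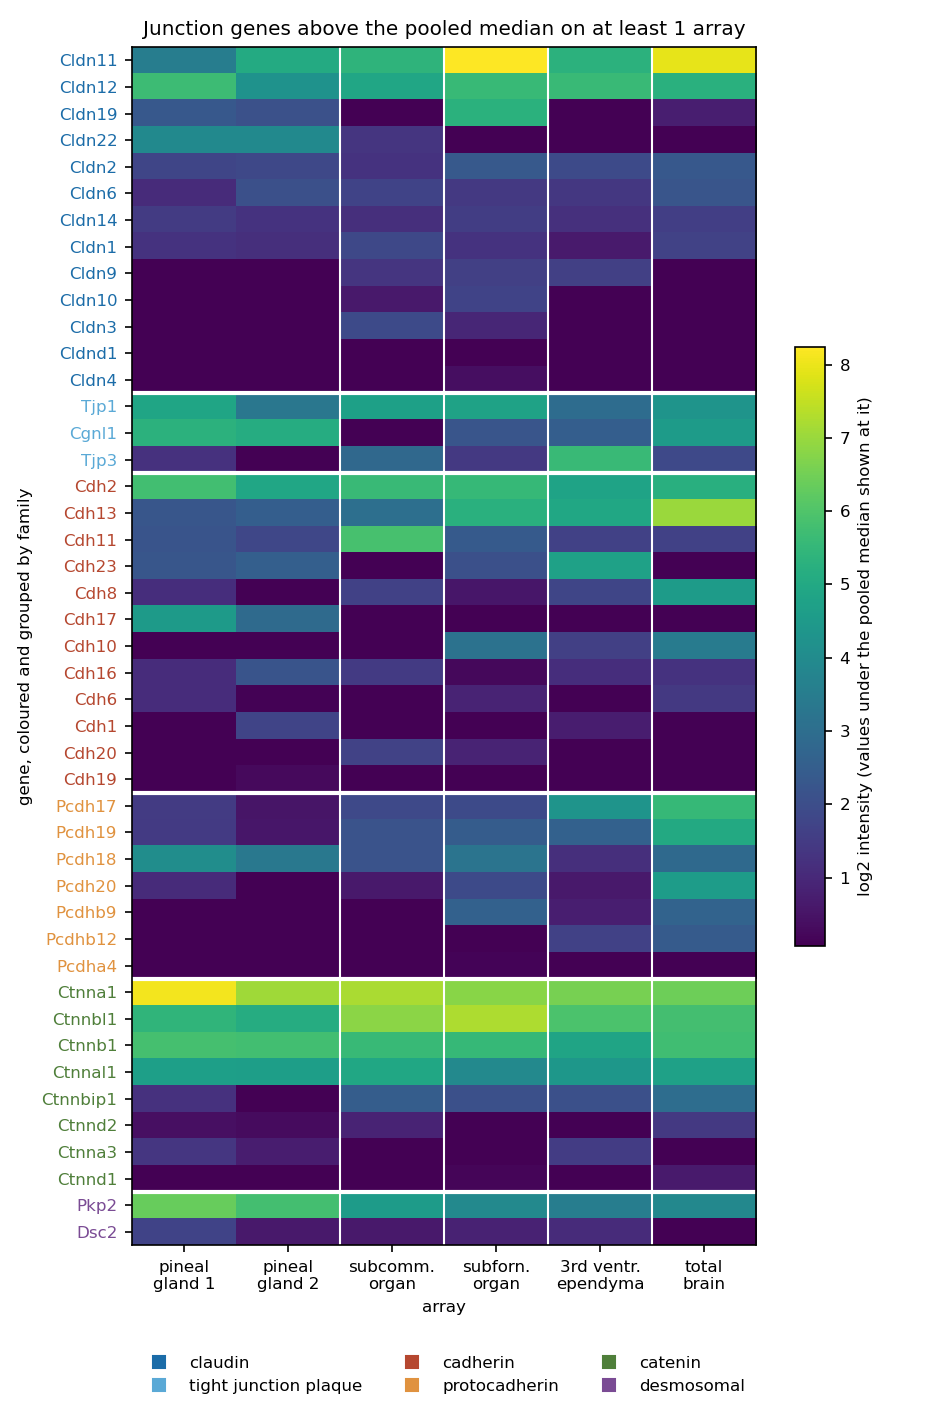
The 45 junction genes over the pooled median on at least 1 array, as log2 intensity on each of the 6 arrays, with values under the pooled median drawn at it and genes grouped by family. Ctnna1, Ctnnb1 and Cdh2 are bright on every array, and the darkest rows are genes that passed on 1 array only, such as Pcdha4 and Cldnd1.

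Of the adherens junction core, Ctnna1, Ctnnb1 and Cdh2 were present on every array, at levels within 4-fold of each other for each gene. Ctnna1, which encodes alpha-E-catenin and links cadherins to actin, had 275 and 136 in pineal gland, 149 in subcommissural organ, 111 in subfornical organ, 94.7 in ependyma and 86.7 in total brain. Ctnnb1, beta-catenin, had 57.1 and 54.7 in pineal gland, 47.6 in subcommissural organ, 47.2 in subfornical organ, 28.8 in ependyma and 53.6 in total brain. Cdh2, N-cadherin, had 54.3 and 30.2 in pineal gland, 49.4 in subcommissural organ, 47.0 in subfornical organ, 28.3 in ependyma and 37.8 in total brain. For none of these did a structure differ 4-fold from total brain or from ependyma, and limma did not call the pineal gland different from total brain for any of them (adjusted p between 0.27 for Ctnna1 and 0.97 for Ctnnb1). Ctnnd1, another catenin of the junction, passed the bound only in subfornical organ (1.13) and total brain (1.60). Ctnnbl1, a protein associated with the spliceosome, had 43.0 and 35.3 in pineal gland, 114 in subcommissural organ, 152 in subfornical organ, 61.6 in ependyma and 55.3 in total brain, so the 2 circumventricular organs with single arrays stood highest without reaching 4-fold. At the tight junction, Tjp1, the scaffold ZO-1, had 29.6 and 9.97 in pineal gland, 26.5 in subcommissural organ, 27.6 in subfornical organ, 7.77 in ependyma and 19.7 in total brain. Its pineal gland arrays differed 2.97-fold from each other, more than the pineal gland mean differed from total brain.

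Against this common core, 9 junction genes were at least 4-fold above every other tissue in 1 tissue, which is 15.5% of the set, where 3.61% of all named genes were so. The count is a description without a test. After quantile normalization 8 remained, without Cdh23, and by the mean over all probes of a gene Cdh13 took the place of Pcdh20. By tissue the share of all named genes was 0.822% for pineal gland (2 junction genes), 0.468% for subcommissural organ (1), 0.616% for subfornical organ (1), 0.436% for ependyma (2) and 1.27% for total brain (3).

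In the pineal gland these were a cadherin and a claudin. Cdh17, the 7-domain cadherin of liver and intestine, had 23.2 and 7.45 in pineal gland, against 0.378 in subcommissural organ, 0.510 in subfornical organ, 1.07 in ependyma and 0.594 in total brain. Both pineal gland arrays were above the others, by 6.94-fold for the lower of them over the ependyma, and outside the gland only the ependyma passed the bound. Cldn22 had 15.3 on both pineal gland arrays, against 2.53 in subcommissural organ, 0.440 in subfornical organ, 0.422 in ependyma and 0.783 in total brain. The subcommissural organ was the only other tissue over the bound, 6.05-fold below the gland. Against total brain limma called both genes higher in the pineal gland: Cdh17 rose by 4.47 on the log2 scale, at least 12.5-fold (SE 0.72, adjusted p = 1.7e-08), and Cldn22 by 4.29, at least 14.6-fold (adjusted p = 7.3e-08).

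The subcommissural organ and the subfornical organ each had 1. Cdh11, a type II classical cadherin of mesenchymal cells, had 58.9 in subcommissural organ, against 4.54 and 3.498 in pineal gland, 5.21 in subfornical organ, 3.15 in ependyma and 3.15 in total brain. All arrays passed the bound, and the subcommissural organ stood 11.3-fold above the next. A second probe of Cdh11 gave 24.6 in subcommissural organ, against 4.44 and 3.68 in pineal gland, 0.678 in subfornical organ, 0.596 in ependyma and 1.34 in total brain, with the subcommissural organ again highest. Cldn19, a claudin of Schwann cells and kidney tubules, had 39.1 in subfornical organ, against 5.03 and 4.31 in pineal gland, 0.188 in subcommissural organ, 0.970 in ependyma and 1.69 in total brain. The subfornical organ stood 7.77-fold above the higher pineal gland array, which came next, while the subcommissural organ and the ependyma lay under the bound.

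The ependyma also had a pair. Cdh23, the long cadherin of the tip link in hair cells of mice and humans, had 27.1 in ependyma, against 4.83 and 5.90 in pineal gland, 0.587 in subcommissural organ, 4.17 in subfornical organ and 0.846 in total brain. Total brain and the subcommissural organ lay under the bound, and the other structures stood between them and the ependyma. Tjp3, the scaffold ZO-3 of epithelial tight junctions, had 48.9 in ependyma, against 2.36 and 0.764 in pineal gland, 7.06 in subcommissural organ, 2.67 in subfornical organ and 3.64 in total brain. The ependyma was 6.92-fold above the subcommissural organ, the next highest.

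The 3 genes highest in total brain were a cadherin and 2 protocadherins. Cdh8, a type II cadherin of neurons, had 2.18 and 0.672 in pineal gland, 3.13 in subcommissural organ, 1.497 in subfornical organ and 3.45 in ependyma, against 23.6 in total brain. Pcdh19, a non-clustered protocadherin linked to epilepsy in humans, had 2.75 and 1.48 in pineal gland, 4.49 in subcommissural organ, 5.50 in subfornical organ and 6.06 in ependyma, against 32.8 in total brain. Pcdh20, another non-clustered protocadherin, had 2.12 and 0.507 in pineal gland, 1.54 in subcommissural organ, 3.72 in subfornical organ and 1.54 in ependyma, against 24.01 in total brain. Every structure array lay below total brain for each of them, by 5.41-fold or more.

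**Figure D2:**
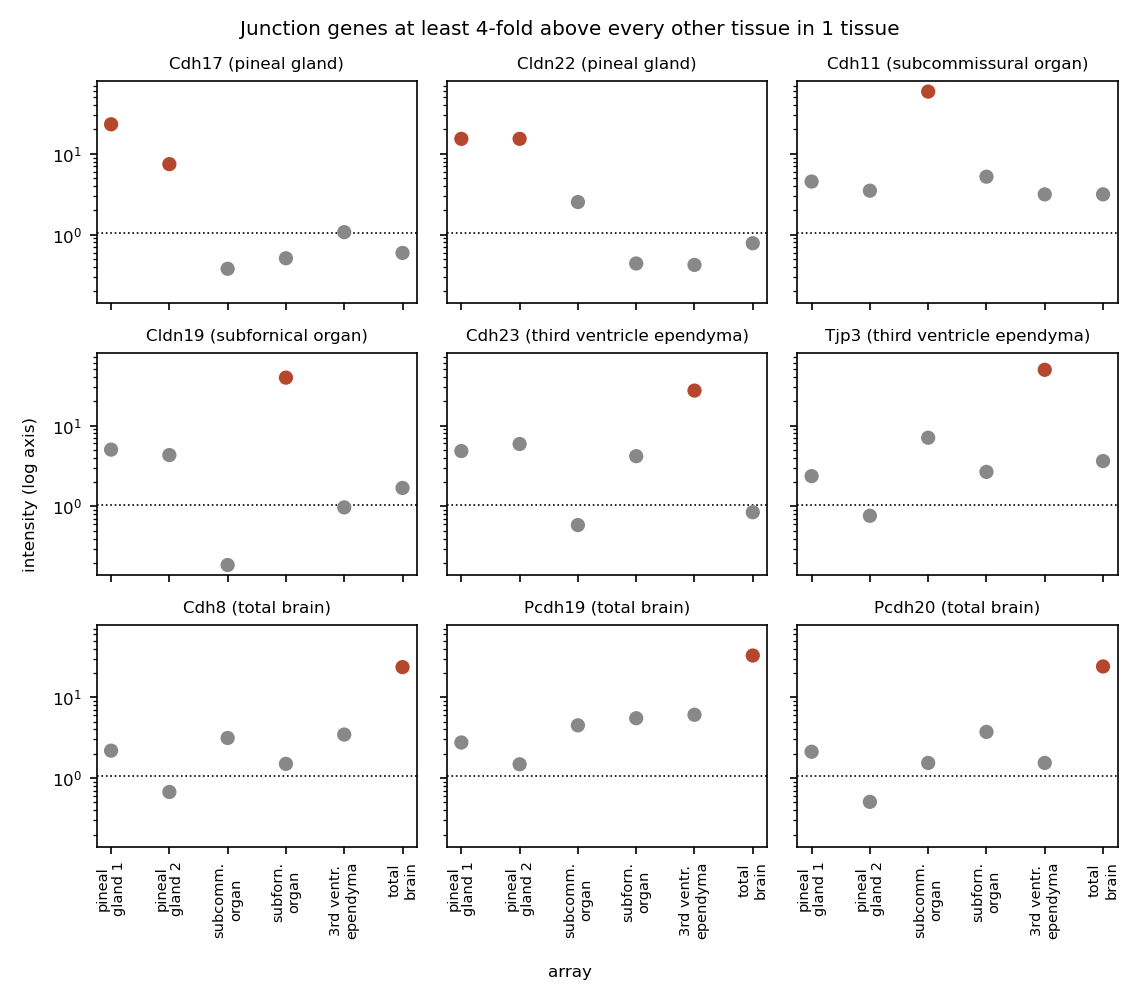
Intensity (log axis) on each of the 6 arrays for the 9 junction genes at least 4-fold above every other tissue in 1 tissue, with that tissue's arrays in red, the others in grey and the bound of 1.05 dotted. Cdh17 and Cldn22 stand out on both pineal gland arrays, and Cdh8, Pcdh19 and Pcdh20 on the total brain array.

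Promoters are shown for the 4 of these genes that stood out in a structure and have an entry in the RefSeq table of assembly GRCr8, because the arrays set their transcripts apart in pineal gland (Cldn22), subfornical organ (Cldn19) or ependyma (Cdh23, Tjp3). Each runs from 250 bases before to 50 bases after the annotated start, 5′ to 3′ on the gene's own strand, with matches to 3 motifs in capitals. All were searched on both strands, and none is part of another. The first motif, TAATCC, is the core bound by homeodomain factors such as Crx, and its other strand reads GGATTA. The second, GTTGCC, is the core bound by the RFX factors of ciliated cells, and its other strand reads GGCAAC. The third, CAGGTG, is an E box bound by repressors of epithelial genes such as Snail, and its other strand reads CACCTG.
Cldn22 (chr16:51156035-51156334, minus strand): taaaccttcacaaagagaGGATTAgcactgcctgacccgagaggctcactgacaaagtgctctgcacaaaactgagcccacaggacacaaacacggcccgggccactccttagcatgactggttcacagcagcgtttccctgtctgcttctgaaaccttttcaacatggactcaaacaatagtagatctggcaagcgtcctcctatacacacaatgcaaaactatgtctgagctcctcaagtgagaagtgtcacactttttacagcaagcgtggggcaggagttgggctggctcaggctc
Cldn19 (chr5:138148325-138148624, plus strand): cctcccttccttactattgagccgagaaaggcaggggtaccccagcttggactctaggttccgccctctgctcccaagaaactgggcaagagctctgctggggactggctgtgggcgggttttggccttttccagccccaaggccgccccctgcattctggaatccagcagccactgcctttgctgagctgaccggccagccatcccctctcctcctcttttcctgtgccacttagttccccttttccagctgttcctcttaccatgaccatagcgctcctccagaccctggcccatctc
Cdh23 (chr20:29165283-29165582, minus strand): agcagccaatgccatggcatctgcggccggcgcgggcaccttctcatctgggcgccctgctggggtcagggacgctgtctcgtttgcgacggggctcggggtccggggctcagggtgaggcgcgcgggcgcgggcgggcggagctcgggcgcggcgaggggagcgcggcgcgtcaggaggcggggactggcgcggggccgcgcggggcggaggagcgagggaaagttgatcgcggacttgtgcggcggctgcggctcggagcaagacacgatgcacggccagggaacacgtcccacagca
Tjp3 (chr7:9084174-9084473, plus strand): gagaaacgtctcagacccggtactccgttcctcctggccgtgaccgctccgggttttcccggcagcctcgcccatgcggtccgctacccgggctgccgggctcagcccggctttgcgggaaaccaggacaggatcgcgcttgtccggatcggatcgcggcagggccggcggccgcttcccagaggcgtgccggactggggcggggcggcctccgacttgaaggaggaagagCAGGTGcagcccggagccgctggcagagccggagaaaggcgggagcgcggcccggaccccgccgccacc
The Cldn22 window held TAATCC in reverse at position -232 from the start, the Tjp3 window held CAGGTG at position -19, and the other 2 windows held none of the 3 words. Base composition differed, with 74.7% G and C in the Cdh23 window, 72.7% in Tjp3, 59.7% in Cldn19 and 50.7% in Cldn22. Of 43 junction genes with a promoter entry, 6 held TAATCC (14.0%, against 7.11% of all 27457 promoters), 5 held GTTGCC (11.6%, against 12.2%) and 8 held CAGGTG (18.6%, against 18.7%). A match is a run of letters and not a shown binding site.

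In pineal gland against total brain, the genes at lower level were 5 protocadherins, 3 cadherins, a claudin and a catenin, and those at higher level were 2 cadherins, 2 desmosomal genes, a claudin and a catenin. Of 38 measured junction genes, 6 were at least 4-fold higher and 10 at least 4-fold lower, where 6.71% of all measured genes were higher and 14.2% lower. limma called 6 higher and 10 lower at an adjusted p of 0.05, beside 7.68% and 16.1% of all measured genes, and with values under the bound raised to it 4 higher and 10 lower remained past 4-fold. The median log2 difference was -0.38 over the junction genes and -0.45 over all measured genes. The limma standard error was the same for every gene, 0.72 on the log2 scale, because the fit pooled the spread of the pineal gland pair over all genes, and the single total brain array was assumed to vary like that pair. After quantile normalization, which put the median of all measured genes at 0.03, limma called 4 higher and 6 lower, and Cdh8 (adjusted p = 0.054), Pcdh20 (0.062), Cldn11 (0.086), Ctnnbip1 (0.16), Ctnna3 (0.055) and Dsc2 (0.11) were no longer called. With no filter on low values it called 2 higher and 9 lower, without Cdh23, Ctnna3, Dsc2, Pkp2 and Ctnnbip1.

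Cdh13, the lipid-anchored T-cadherin, had 4.81 and 5.73 in pineal gland, against 131 in total brain, with 8.34 in subcommissural organ, 38.6 in subfornical organ and 31.0 in ependyma between them. It fell by 4.64 on the log2 scale, 24.9-fold (limma adjusted p = 4.4e-09). Cdh10, a type II cadherin, had 0.736 and 0.430 in pineal gland, against 11.2 in total brain, and fell at least 10.7-fold (adjusted p = 5.9e-08), both gland arrays being under the bound. Cdh8 fell 19.5-fold (adjusted p = 7.7e-08). Pcdh17, a non-clustered protocadherin, had 2.79 and 1.43 in pineal gland, 3.64 in subcommissural organ, 3.74 in subfornical organ and 19.6 in ependyma, against 46.7 in total brain, and in the gland fell 23.3-fold (adjusted p = 9.4e-09). Pcdh20 fell at least 22.8-fold and Pcdh19 16.2-fold. The clustered protocadherins Pcdhb12, with 0.662 and 0.718 in pineal gland against 5.37 in total brain, and Pcdhb9, with 0.922 and 0.920 against 6.42, were under the bound in the gland, and fell at least 5.11-fold and 6.11-fold. In the other structures Pcdhb12 had 0.658 in subcommissural organ, 0.575 in subfornical organ and 3.14 in ependyma, and Pcdhb9 had 0.287, 6.12 and 1.69 there. The clustered genes are near copies of each other, and whether a probe also read a neighbour was not tested.

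Cldn11, the claudin of tight junctions in central myelin, had 11.7 and 33.7 in pineal gland, against 248 in total brain, and fell 12.5-fold. Its gland arrays differed 2.89-fold, both far below total brain. Ctnnbip1, an inhibitor of beta-catenin's binding to transcription factors, had 2.36 and 0.764 in pineal gland, against 7.99 in total brain, and fell 5.95-fold (limma adjusted p = 0.0027). Without pineal gland array 2 its log2 difference was -1.76, short of 4-fold.

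Higher in the gland beside Cdh17 and Cldn22 were 4 genes. Pkp2, the desmosomal plaque protein plakophilin 2, had 81.8 and 56.5 in pineal gland (69.1 ± 17.9, SD, n = 2), against 14.9 in total brain, and rose 4.56-fold (limma adjusted p = 0.014). The other structures had 23.3 in subcommissural organ, 15.2 in subfornical organ and 11.5 in ependyma, so the gland was highest on both arrays. Its desmosomal partner Dsc2, desmocollin 2, had 3.25 and 1.54 in pineal gland, against 0.546 in total brain, and rose at least 2.13-fold (adjusted p = 0.024), with 1.55 in subcommissural organ, 1.81 in subfornical organ and 2.13 in ependyma. Cdh23 rose at least 5.08-fold (adjusted p = 0.0018), and Ctnna3, alpha-T-catenin, known from heart muscle, with 2.60 and 1.66 in pineal gland against 0.447 in total brain, rose at least 1.98-fold (adjusted p = 0.012). Ctnna3 had 0.527 in subcommissural organ, 0.863 in subfornical organ and 2.86 in ependyma. Without pineal gland array 1 the log2 differences of Pkp2 (1.92), Dsc2 (1.49) and Ctnna3 (1.89) were short of 4-fold. Cgnl1, the cingulin relative paracingulin, had 40.0 and 35.1 in pineal gland, against 23.6 in total brain, a difference that limma did not call.

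No measured protocadherin was 4-fold above total brain in any structure, and in pineal gland, subcommissural organ and subfornical organ more protocadherins than genes of any other family were 4-fold below it. In pineal gland 5 of 6 measured protocadherins were at least 4-fold lower, with a family median log2 difference of -3.49, in subcommissural organ 5 of 6 (-3.36), in subfornical organ 4 of 7 (-2.58) and in ependyma 2 of 6 (-1.81). Of all measured genes 14.2%, 14.9%, 9.63% and 9.34% were so, in the same order. The family held 14 genes, of which 7 passed the bound on no array. Some of these counted as measured only through total brain, so for them only a lower level could be found. They were Pcdhb12 and Pcdhb9 in pineal gland and subcommissural organ, Pcdh20 in pineal gland (by the mean log2 level of the pair), and Pcdhb12 in subfornical organ. The counts and family medians include them. These 4 comparisons share the single total brain array, so its error enters all of them. Pcdh18, a non-clustered protocadherin, differed from its relatives, with 17.1 and 10.2 in pineal gland, 4.45 in subcommissural organ, 9.34 in subfornical organ and 2.26 in ependyma, against 7.35 in total brain. It was 4-fold different from total brain in no structure.

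Most measured markers of neurons were also lower than total brain in each structure. The summed level of 10 neuronal markers was 136 and 88.7 in pineal gland, 68.8 in subcommissural organ, 88.3 in subfornical organ and 172 in ependyma, against 963 in total brain, with 5 markers under the bound on each pineal gland array and on the subcommissural organ array, 4 on the subfornical organ, 3 on the ependyma and 1 on total brain. Of 9 measured markers, 6 were at least 4-fold lower in pineal gland (1 was higher), 8 in subcommissural organ, 9 in subfornical organ and 8 in ependyma. Other markers were lower as well. Oligodendrocyte markers were at least 4-fold lower than in total brain for 8 of 8 in pineal gland, 7 of 8 in subcommissural organ and 8 of 8 in ependyma, but 0 of 8 in subfornical organ. Astrocyte markers were lower for 6 of 7 in pineal gland and 4 of 7 in subcommissural organ, and for 0 of 8 in subfornical organ and 0 of 7 in ependyma. The part of any of these cell types in the lower cadherins and protocadherins was not tested. In such bulk samples fewer cells of a type and less RNA per cell cannot be told apart.

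**Figure D3:**
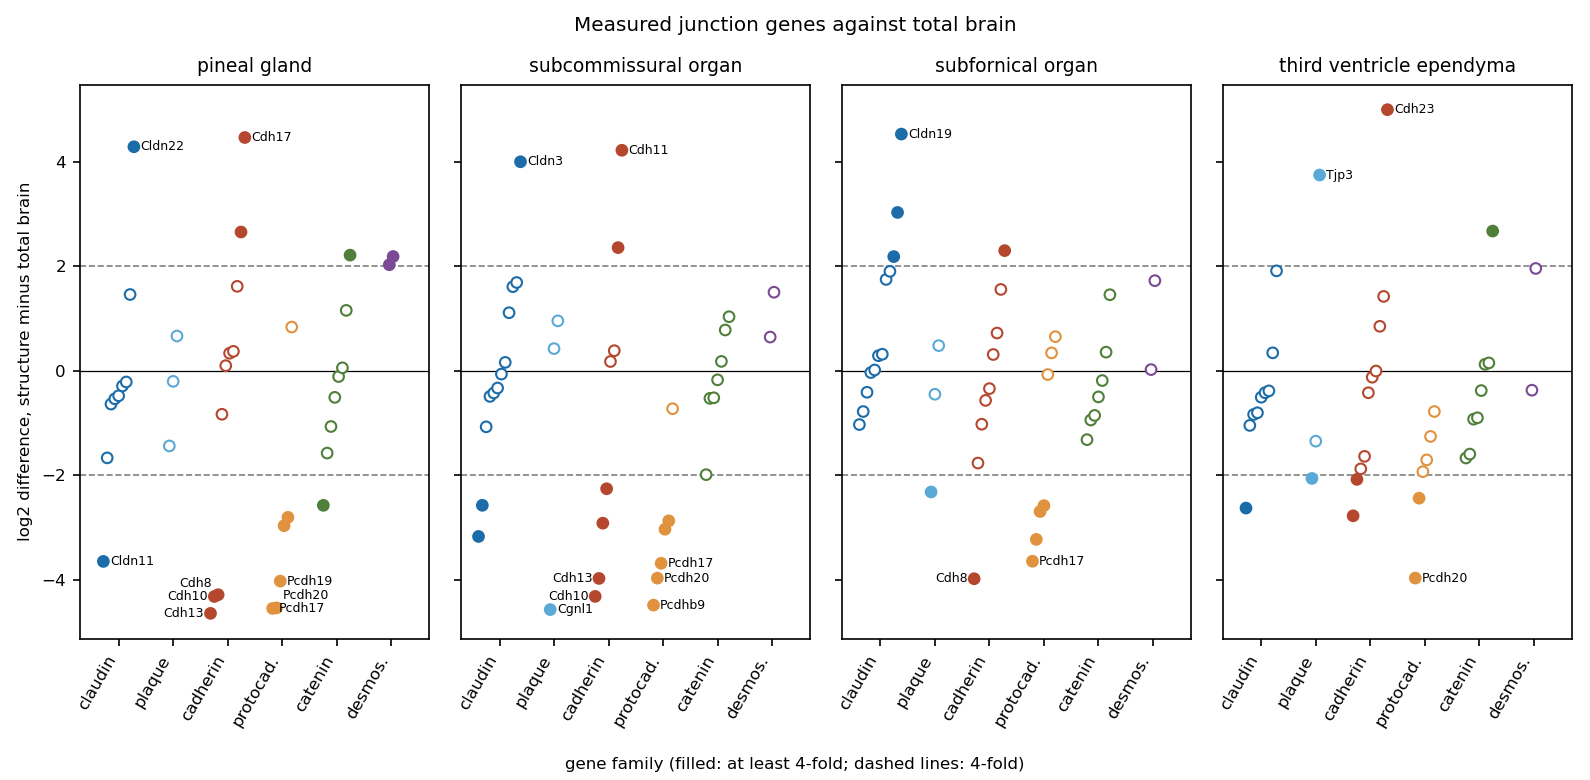
Log2 difference of each measured junction gene from total brain, by family, in pineal gland (mean of 2 arrays), subcommissural organ, subfornical organ and ependyma (1 array each), with filled points past 4-fold and dashed lines at 4-fold. No protocadherin point lies above the upper dashed line in any panel, and single cadherin or claudin genes lie highest in pineal gland, subcommissural organ and subfornical organ.

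The subcommissural organ array had 3 junction genes at least 4-fold above total brain and 12 at least 4-fold below it, of 38 measured, where 8.63% of all measured genes were higher and 14.9% lower. Each side had 1 array, so there is no replicate check here or in the other comparisons between single arrays. Medians of the log2 difference were -0.37 over junction genes and -0.29 over all measured genes, and with values under the bound raised to it 1 higher and 10 lower genes stayed past 4-fold. Cdh11 was 18.7-fold higher. Cldn3, a barrier-forming claudin of epithelia, had 3.75 in subcommissural organ, against 0.234 in total brain, which is at least 3.57-fold higher, and Cdh20, a type II cadherin, had 3.19 against 0.622, at least 3.04-fold higher. Cldn3 lay over the bound in subfornical organ (1.92) and under it in pineal gland (0.247 and 0.0018) and ependyma (0.309). Cdh20 was over it in subfornical organ (1.83) and under it in pineal gland (0.898 and 0.241) and ependyma (0.358).

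Below total brain, cadherins and protocadherins made up 9 of the 12 genes. Cdh13 had 8.34 in subcommissural organ, against 131 in total brain (15.7-fold lower), Cdh10 had 0.563 against 11.2 (at least 10.7-fold), and Pcdhb9 had 0.287 against 6.42 (at least 6.11-fold). Pcdh20 was 15.6-fold, Pcdh17 12.8-fold, Cdh8 7.53-fold and Pcdh19 7.31-fold lower, and Pcdhb12 at least 5.11-fold. Cldn11, with 41.7 against 248, was 5.94-fold lower. Cldn19 was at least 1.61-fold and Cdh6, a type II cadherin, at least 2.58-fold lower.

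Cgnl1 gave the lowest ratio here, with 0.994 in subcommissural organ, against 23.6 in total brain, at least 22.4-fold lower by its brightest probe. A second Cgnl1 probe read 1.11 in subcommissural organ, against 0.404 in total brain, which puts its log2 difference at 1.46, on the other side of 0. That probe lay under the bound on the other 5 arrays, so the low level in the subcommissural organ rests on 1 probe.

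In the subfornical organ 4 of 40 measured junction genes were at least 4-fold above total brain and 6 at least 4-fold below, where 7.19% of all measured genes were higher and 9.63% lower. Over the junction genes the median log2 difference was -0.05, and -0.20 over all measured genes, and with values under the bound raised to it 1 higher gene and 6 lower genes stayed past 4-fold. Of the 4 higher genes 3 were claudins. Cldn19 was 23.2-fold higher, Cldn10, a claudin that forms ion channels between cells, had 3.27 in subfornical organ against 0.718 in total brain (at least 3.11-fold) and with 0.399 and 0.405 in pineal gland and 1.55 in subcommissural organ, and Cldn3 had 1.92 against 0.234 (at least 1.82-fold). Cdh23 had 4.17 against 0.846, at least 3.97-fold higher. No claudin was 4-fold lower: Cldn11 had 304 in subfornical organ, against 248 in total brain.

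The lower genes were Cdh8 (15.7-fold), Pcdh17 (12.5-fold), Pcdh20 (6.45-fold), Pcdh19 (5.97-fold) and Pcdhb12 (at least 5.11-fold), with Cgnl1, which had 4.73 in subfornical organ against 23.6 in total brain, 4.98-fold lower. Cdh10 and Pcdhb9 were near the total brain level here. Cdh10 had 8.86 in subfornical organ, against 11.2 in total brain, and Pcdhb9 had 6.12 against 6.42. Cdh13 had 38.6 against 131, short of 4-fold.

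In the ependyma 3 of 38 measured junction genes were at least 4-fold above total brain and 6 at least 4-fold below, where 7.38% of all measured genes were higher and 9.34% lower. The junction genes had a median log2 difference of -0.79, and all measured genes -0.41, and with values under the bound raised to it 2 higher and 6 lower genes stayed past 4-fold. Cdh23 was at least 25.7-fold higher, Tjp3 13.4-fold and Ctnna3, with 2.86 in ependyma against 0.447 in total brain, at least 2.72-fold. Lower were Pcdh20 (15.6-fold), Cdh8 (6.83-fold), Cldn11 (6.17-fold), Pcdh19 (5.41-fold), Cdh13 (4.22-fold) and Cgnl1 (4.16-fold). Pcdh17 had 19.6 in ependyma, against 46.7 in total brain, so the ependyma was the structure closest to total brain for this gene. After quantile normalization Cdh13 (log2 difference -1.75) and Cgnl1 (-1.62) were short of 4-fold.

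By its brightest probe Cldn11 was high in subfornical organ and total brain, as the oligodendrocyte markers were. It had 304 in subfornical organ, 11.7 and 33.7 in pineal gland, 41.7 in subcommissural organ and 40.2 in ependyma, against 248 in total brain. The summed level of 8 oligodendrocyte markers was 1357.5 in subfornical organ, 61.6 and 36.9 in pineal gland, 203 in subcommissural organ and 258.5 in ependyma, against 1309.6 in total brain, with 5 of the 8 under the bound on each pineal gland array. By these values the subfornical organ and total brain were high and the other structures low. Among the low arrays the order differed. Cldn11 was higher on pineal gland array 2, and the marker sum was higher on array 1. A second Cldn11 probe set only the subfornical organ apart, with 6.34 there, 0.295 and 1.15 in pineal gland, 1.52 in subcommissural organ and 0.292 in ependyma, against 1.57 in total brain. By it the log2 difference from total brain was -1.44 in pineal gland and -0.05 in subcommissural organ, both short of 4-fold, and -2.43 in ependyma. The part of these markers in the Cldn11 values was not tested.

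Set against ordinary ependyma, the pineal gland had 6 of 37 measured junction genes at least 4-fold higher and 7 at least 4-fold lower, where 6.49% of all measured genes were higher and 11.6% lower. limma called 6 higher and 7 lower, beside 7.24% and 12.9% of all measured genes, with the ependyma array assumed to vary like the gland pair. After quantile normalization limma called 6 higher and 4 lower, without Cdh10 (adjusted p = 0.052), Cdh23 (0.057) and Cldn9 (0.077), and with no filter on low values 1 higher (Cldn22) and 2 lower (Tjp3, Pcdh17). The median log2 difference was 0.17 over junction genes and -0.11 over all measured genes, and with values under the bound raised to it 6 higher and 4 lower genes stayed past 4-fold.

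Both plaque scaffolds with a called difference moved in opposite directions. Tjp3 had 2.36 and 0.764 in pineal gland, against 48.9 in ependyma, and fell 36.4-fold (limma adjusted p = 2.7e-11). Cgnl1 had 40.0 and 35.1 in pineal gland, against 5.66 in ependyma, and rose 6.61-fold (adjusted p = 0.0014), but by the mean over its probes it was not called (adjusted p = 0.37). Cldn22 rose at least 14.6-fold (adjusted p = 2.8e-11), Cdh17 12.2-fold (8.8e-06), Pkp2 5.89-fold (0.003), Pcdh18 5.82-fold (0.0033) and Cldn19 at least 4.43-fold (0.011), the values in brackets being limma's adjusted p. Cldn19 had 5.03 and 4.31 in pineal gland, against 0.970 in ependyma. Among the genes that fell were Pcdh17 by 9.79-fold, Cdh13 by 5.91-fold and Cdh23 by 5.07-fold. Cldn9, with 0.393 and 0.852 in pineal gland against 3.09 in ependyma, Cdh10, with 0.736 and 0.430 against 3.06, and Pcdhb12 were under the bound in the gland and fell at least 2.94-fold, 2.91-fold and 2.98-fold (adjusted p = 0.0057, 0.0052 and 0.015). Cldn9 had 2.51 in subcommissural organ, 3.07 in subfornical organ and 0.819 in total brain. Without pineal gland array 1 the log2 difference of Cldn9 was -1.86.

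The subcommissural organ, itself a specialised ependyma, had 4 of 38 measured junction genes at least 4-fold above the ordinary ependyma and 8 at least 4-fold below, where 4.91% of all measured genes were higher and 7.86% lower. The median log2 difference was 0.03 over junction genes and 0.06 over all measured genes, and with values under the bound raised to it 1 higher gene and 4 lower genes stayed past 4-fold. Cdh11 was 18.7-fold higher, and Cldn3 (at least 3.57-fold), Cdh20 (at least 3.04-fold) and Cldn22 (at least 2.41-fold, with 2.53 against 0.422) followed. Both ependymal genes were lower: Cdh23, with 0.587 in subcommissural organ against 27.1 in ependyma, at least 25.7-fold, and Tjp3, with 7.06 against 48.9, 6.92-fold. Lower too were Cgnl1 (at least 5.39-fold, by the same probe as above), Pcdh17 (5.38-fold), Pcdhb12 (at least 2.98-fold), Cdh10 (at least 2.91-fold), Ctnna3 (at least 2.72-fold) and Pcdhb9 (at least 1.61-fold).

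The motile cilia markers did not separate these last 2 tissues. The summed level of 6 such markers was 1188 in subcommissural organ, 292 in subfornical organ and 15.2 and 15.0 in pineal gland, against 1337 in ependyma, with 52.0 in total brain. None of the 5 measured markers differed 4-fold between the single arrays of subcommissural organ and ependyma, and Cdh23 and Tjp3 did. In subfornical organ 4 of 5 and in pineal gland 5 of 5 were at least 4-fold below the ependyma, as Cdh23 and Tjp3 also were. The part of ciliated cells in the Cdh23 and Tjp3 values was not tested for any of these structures.

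In the subfornical organ 6 of 42 measured junction genes were at least 4-fold above the ependyma and 4 at least 4-fold below, where 6.77% of all measured genes were higher and 6.61% lower. The median log2 difference was 0.37 over junction genes and 0.13 over all measured genes, and with values under the bound raised to it 3 higher and 3 lower genes stayed past 4-fold. Claudins made up 4 of the 6 higher genes. Cldn19 was at least 37.2-fold higher, Cldn11 7.55-fold with 304 in subfornical organ against 40.2 in ependyma, Cldn10 at least 3.11-fold with 3.27 against 0.688, and Cldn3 at least 1.82-fold with 1.92 against 0.309. Pcdh18, with 9.34 against 2.26, was 4.13-fold higher and Cdh20, with 1.83 against 0.358, at least 1.74-fold. Tjp3 was 18.3-fold, Cdh23 6.48-fold, Pcdh17 5.23-fold and Pcdhb12 at least 2.98-fold lower.

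**Figure D4:**
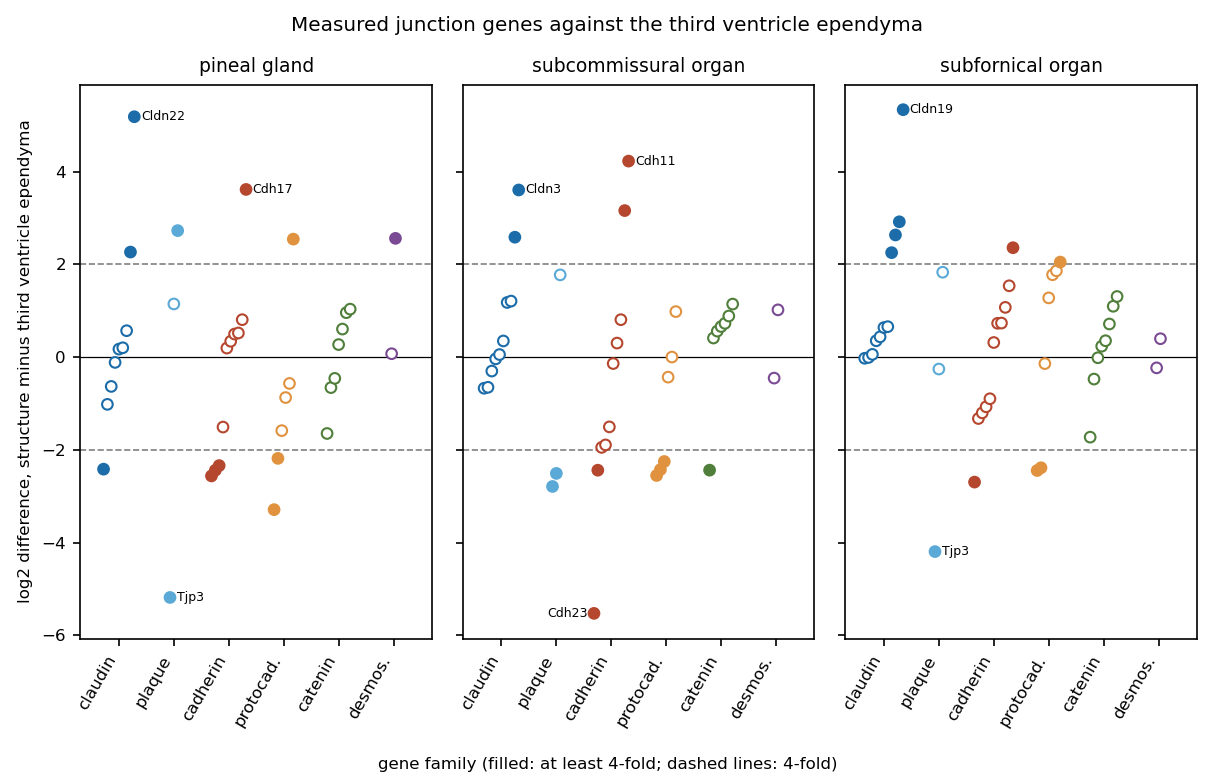
Log2 difference of each measured junction gene from the ependyma, by family, in pineal gland (mean of 2 arrays), subcommissural organ and subfornical organ (1 array each), with filled points past 4-fold and dashed lines at 4-fold. Tjp3 or Cdh23 lies lowest in every panel, and Cldn22, Cdh11 or Cldn19 highest. The 3 panels share the ependyma array.

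Other claudins varied little. Cldn12, which lacks the usual scaffold-binding end of claudins, had 51.2 and 19.0 in pineal gland, 30.3 in subcommissural organ, 47.5 in subfornical organ, 48.4 in ependyma and 38.1 in total brain. Cldn2, the cation pore known from choroid plexus, had 3.44 and 3.56 in pineal gland, 2.41 in subcommissural organ, 5.12 in subfornical organ, 3.79 in ependyma and 5.06 in total brain. Cldn1, a barrier claudin of skin, had 2.39 and 2.26 in pineal gland, 3.62 in subcommissural organ, 2.43 in subfornical organ, 1.57 in ependyma and 3.23 in total brain. None of these was 4-fold different in any of the 7 comparisons. Cdh1, the epithelial E-cadherin, had 1.05 and 3.37 in pineal gland, 0.426 in subcommissural organ, 0.656 in subfornical organ, 1.65 in ependyma and 0.612 in total brain, and its pineal gland arrays differed 3.22-fold. By this probe the gland's mean was 3.07-fold above total brain (at least 1.79-fold over the bound, limma adjusted p = 0.091), short of 4-fold and not called. A second Cdh1 probe had 1.81 and 3.10 in pineal gland and 1.48 in ependyma. It had 0.465 in subcommissural organ, 0.838 in subfornical organ and 0.223 in total brain. By it both gland arrays were more than 4-fold above total brain, which lay under the bound, so the result for Cdh1 depends on the probe.

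The pineal gland pair shows how far 2 arrays of 1 tissue lay apart. Of 32 junction genes whose mean over the pair reached the bound, 0 differed 4-fold, where 1.11% of 8015 genes did. Counting every gene with 1 of the 2 arrays over the bound, 2 of 34 did, beside 2.86% of 8553 genes: Cdh19, with 0.273 and 1.20 (4.42-fold), and Pcdh20, with 2.12 and 0.507 (4.17-fold). Over the 32 junction genes the log2 difference of array 1 minus array 2 had a median of 0.33 and an SD of 0.90, against 0.42 and 0.64 over the 8015 genes. Higher on array 1 were 24 of the 32, and 6217 of the 8015. Cdh8 differed 3.25-fold, Cdh17 3.11-fold and Tjp3 3.09-fold within the pair. Each of these was called against total brain or ependyma with both gland arrays on the same side.

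A second probe was listed for 17 of the 58 genes, 21 further probes in all, of which 13 passed the bound on no array. Where another probe was measured, 20 of the called differences above could be set beside it, in 6 genes: 18 lay on the same side of 0 and 15 also passed 4-fold. Differences that the brightest probe did not call, as for Cdh1, were left out of these counts. Both exceptions in side were the subcommissural organ values of Cgnl1. By the mean over all probes the log2 difference from total brain was -1.30 in subcommissural organ, -0.44 in subfornical organ and -0.54 in ependyma for Cgnl1, and for Pcdh20 -1.75 in pineal gland, -1.73 in subcommissural organ, -0.22 in subfornical organ and -0.85 in ependyma, all short of 4-fold. Cldn11 (-1.31) and Cdh6 (-0.94) were also short of it in subcommissural organ. A second Cdh13 probe had 0.605 and 0.172 in pineal gland, 1.03 in subcommissural organ, 5.11 in subfornical organ and 8.27 in ependyma, against 35.8 in total brain, in the same order of tissues except that subfornical organ and ependyma changed places. A second Pkp2 probe, designed on the same accession, had 70.7 and 50.2 in pineal gland, 22.4 in subcommissural organ, 14.2 in subfornical organ and 10.3 in ependyma, against 14.3 in total brain, close to the first.

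**Figure D5:**
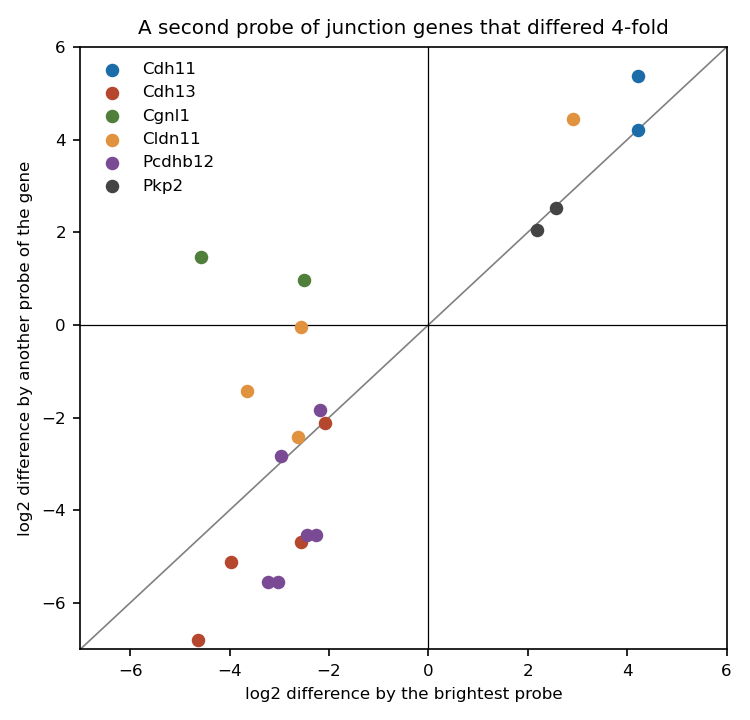
Log2 difference by another probe against that by the brightest probe, for the 20 called differences of the 6 junction genes whose other probe was also measured, with 1 point per comparison and the diagonal as a line. All points except the 2 of Cgnl1 lie on the same side of 0 on both axes, and the Pkp2 points lie on the diagonal.

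Genes outside the set that work with these junctions were counted from 4 lists of partners. The list of adhesion partners held 21 symbols, some of them older names of genes also listed by their current name. From it 13 genes were on the array, and none of the 8 measured was 4-fold different in pineal gland against total brain. In the subcommissural organ 2 of 11 were higher than in total brain and 1 lower. Epcam, an adhesion protein of epithelia, had 9.43 in subcommissural organ, against 0.626 in ependyma and 0.614 in total brain, at least 8.97-fold above both. Jam2, a junctional adhesion molecule, had 29.95 in subcommissural organ and 19.3 in subfornical organ, against 3.65 in ependyma, 8.21-fold and 5.29-fold higher.

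The polarity list held 25 symbols, again with some older names of listed genes. From it 17 genes were on the array, and 2 of 16 measured were higher and 3 lower in pineal gland than in total brain. Llgl2, a regulator of epithelial polarity, had 7.33 and 5.01 in pineal gland and 3.37 in subcommissural organ, against 0.169 in ependyma and 0.196 in total brain. It rose at least 5.77-fold in pineal gland against total brain (limma adjusted p = 3.0e-10). Pard6b, part of the Par polarity complex, had 77.8 and 35.3 in pineal gland, against 9.01 in total brain, and rose 5.82-fold (adjusted p = 0.0031). Patj, a scaffold of the Crumbs complex that binds ZO-3, had 33.9 in ependyma, against 3.06 in total brain, 11.1-fold higher, and fell 9.04-fold in pineal gland against ependyma (adjusted p = 0.00012), the same sides as Tjp3. Lin7b, a small scaffold also found at synapses, had 0.797 and 2.36 in pineal gland and 1.62 in subcommissural organ, against 18.6 in total brain.

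The list of linkers and plakins held 17 symbols, with an older name of a listed gene among them. From it 13 genes were on the array, and in pineal gland against total brain 0 of 12 measured were 4-fold higher and 1 was lower. In the subcommissural organ 1 was higher and 3 were lower of 12. Ppl, the plakin periplakin, had 16.3 in subcommissural organ and 12.2 in ependyma, against 3.02 in total brain. Pdlim1, a linker to actin, had 0.873 in subcommissural organ, against 12.9 in total brain, at least 12.2-fold lower. Of 18 other cadherin superfamily genes, 13 were on the array, and in the subcommissural organ 3 of 11 measured were higher than in total brain and 2 lower. Cdhr5, a cadherin-related protein of the intestinal brush border, had 11.8 in subcommissural organ, against 0.476 in total brain, which is at least 11.3-fold higher, and the atypical cadherin Fat1 had 13.6 against 2.26, 5.999-fold higher. Shares of all measured genes past 4-fold in these comparisons are those given above.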

How the data were processed

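RNA of 6 samples (3 ng each, 2 rounds of amplification) was read on one-colour arrays, per the labels' protocols. The deposited values are intensities, made by the authors, and their range shows a linear scale. The scanner, background correction and scaling are not given in the sources used here, and -9999 was taken as missing. No detection call was used. Only the pineal gland pair gave a spread between arrays, since every other tissue had 1 array. Of 35129 probes, 34963 had values on all 6 arrays. GEO's platform annotation gave 16865 probes 1 symbol and 165 several, and listed none for 18099.

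Values were raised to 0.142 (pooled 5th percentile) and log2 was taken without further scaling. The brightest probe of a gene had the highest mean log2 value over the 6 arrays, and an arithmetic mean would choose another probe for Cdh1 and Pcdhb12. The pineal gland comparisons were tested with limma 3.58.1 (R 4.3.3, lmFit, eBayes, two-sided, Benjamini-Hochberg over all measured genes), with 1 residual degree of freedom per gene. In the main setting these were pooled over genes, to 9071 degrees of freedom against total brain and 8961 against ependyma. A gene's own spread within the pineal gland pair therefore had no weight in the main p-values. The scripts were tested on simulated data.

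The members, lists and thresholds were chosen with earlier results of these data known. Values on every array are given for genes 4-fold above every other tissue, the 5 largest differences each way per comparison and the 3 brightest genes per family (not Pkp3, under the bound on every array). Partner genes were named from the 3 largest differences each way per list and comparison, with values of the arrays compared, and other genes are shown as examples. Summed levels of the marker lists not described above, in the order pineal gland 1, pineal gland 2, subcommissural organ, subfornical organ, ependyma and total brain, were 111, 55.4, 138, 868, 591 and 512 for astrocytes, 89.3, 95.3, 70.4, 164, 113 and 296 for endothelium, 172, 196, 412, 61.9, 312 and 164 for choroid plexus, 90.0, 68.8, 38.1, 68.4, 17.1 and 53.5 for mural cells and fibroblasts, and 219, 219, 82.5, 702, 505 and 448 for microglia and macrophages.

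Alternatives were quantile normalization, a filter at the pooled 75th percentile or none, values raised to the pooled median, the mean over all probes of a gene, and leaving out each pineal gland array.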

Additional observations from a re-analysis of the deposited data

How the results depend on the processing

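No called difference of a junction gene changed sign under any alternative run. Of 313 differences recomputed for single genes, 232 moved by less than the spread of 1 pineal gland array and 81 by more; of 106 counts, 85 stayed within 1.5 times the main count. The count of genes 4-fold apart within the pineal gland pair was 0 by the mean of the pair and 2 when the higher array had to reach the bound, a rule added after seeing the data. With a filter at the pooled 75th percentile, counts of 4-fold differences changed to 3 higher in pineal gland against total brain and 4 lower against ependyma, 1 higher in subcommissural organ against total brain, 1 higher and 3 lower against ependyma, 1 higher in subfornical organ against total brain and 3 against ependyma. With values raised to the pooled median they were 4 lower in pineal gland against ependyma, 1 higher in subcommissural organ against total brain, 1 higher and 4 lower against ependyma, 1 higher in subfornical organ against total brain and 3 against ependyma; fewer genes can reach 4-fold under either rule. limma's counts became 3 higher against total brain and 4 lower against ependyma with that filter, 2 higher against total brain and 1 higher and 2 lower against ependyma with no filter, and 6 lower against total brain and 4 lower against ependyma after quantile normalization; the cause was not tested. Leaving out 1 pineal gland array gave 4 to 6 higher and 9 to 13 lower against total brain, and 6 to 7 higher and 7 to 9 lower against ependyma. Quantile normalization moved the median log2 difference of all measured genes from total brain to 0.03 in pineal gland, 0.01 in subcommissural organ, 0.06 in subfornical organ and -0.06 in ependyma, where without it the medians were -0.45, -0.29, -0.20 and -0.41. No paired analysis was possible because only the pineal gland has 2 arrays, and limma could not be run without 1 of them, since no residual degree of freedom is left. Signal near the pooled median limits every fold with a side under 1.05.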
